A study of Mus musculus with 21 samples.

Results

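The comparison set oocytes of old mice that had received unsorted stem cells against oocytes of young mice. It held 5 of the 21 libraries of the series, namely the 2 Aged + Unsorted and the 3 Young libraries among 12 oocyte libraries, and their groups were taken from the labels. The study placed mesenchymal stem cells of human umbilical cord, called UC-MSCs, beneath the capsule of the mouse ovary and followed ovarian function and the RNA of oocytes and granulosa cells. The cells were given unsorted or as subpopulations with high or low LRP1, a surface receptor of the lipoprotein receptor family. Young mice were female ICR mice, an outbred stock, 6 to 8 weeks old and without a transplant. Aged + Unsorted mice were female ICR mice of 18 months that had received the unsorted UC-MSCs, and the study followed transplanted mice for 3 weeks. Age and transplant, surgery included, both differed between these groups, so their parts in any difference cannot be told apart here. Oocytes were released by puncture of follicles and stripped of cumulus cells with hyaluronidase and of the zona pellucida with pronase. The labels do not give the meiotic stage. How many mice or oocytes entered a library is not given in the sources used here, so p-values measure only the spread between these samples, which may be technical.

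A mouse oocyte builds up a store of messenger RNA while it grows and then stops transcription until after fertilization. Meiosis, fertilization and the first cleavages draw on that store, which is kept in check by RNA-binding proteins and by control of the poly(A) tail. The store includes messages of the egg coat, of factors secreted to the surrounding granulosa cells, of maternal-effect proteins of the subcortical maternal complex, and of the spindle, the ribosome and the respiratory chain. Ageing of the ovary is known to bring fewer oocytes and more errors of chromosome segregation.

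Expression was analysed as FPKM, the authors' fragments scaled by gene length and by library size, and values are given in the order Young replicate 1, 2 and 3 and Aged + Unsorted replicate 1 and 2. The aligned sequence came to 1.35, 3.02 and 3.40 gigabases in Young and 0.984 and 2.96 in Aged + Unsorted. At that depth a read on a gene of 1 kilobase was worth an FPKM of 0.0441 to 0.152. Protein-coding genes at an FPKM of 10 or more numbered 414, 1155 and 4023 in Young and 3741 and 4938 in Aged + Unsorted. Young replicate 1 thus stood apart, and Young replicate 2 held fewer detected genes than the other 3. The Gm10800 family, 11 genes that share sequence with Gm10800, a locus of satellite-like repeats, took 88.4%, 1.13% and 0.000941% of TPM (transcript abundance scaled to the same total in each library) in Young and 3.17% and 0.0111% in Aged + Unsorted. Over 3687 abundant protein-coding genes, Spearman's rho of Young replicate 1 with the other 4 libraries was 0.0071 to 0.0599. It was 0.743 between Young replicate 3 and Aged + Unsorted replicate 2, 0.463 between both Aged + Unsorted libraries and 0.429 between Young replicates 2 and 3. The genes of these coefficients share libraries and depth, so they are a description.

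The label oocyte was checked against 10 oocyte markers, the genes of the zona pellucida (Zp1, Zp2 and Zp3), of secreted growth factors (Gdf9 and Bmp15) and of maternal proteins (Dppa3, Ooep, Nlrp5, Oosp1 and H1foo). Their median FPKM was 0.892, 84.9 and 595 in Young and 647 and 1001 in Aged + Unsorted. In Young replicate 1 the markers ran from 0 to 2.18, with Zp2 listed at 0, whereas the lowest marker stood at 114 and 223 in Aged + Unsorted. Young replicate 1 thus held little RNA of these markers, so list medians below are given with and without it and each gene is given library by library. Granulosa and cumulus cell markers were low in all 5 libraries, with a median FPKM over 10 genes of 3.83, 1.68 and 4.49 in Young and 2.28 and 0.962 in Aged + Unsorted and a summed FPKM of 36.6 to 101 in Young and 76.7 and 133 in Aged + Unsorted. Most of that sum in Young replicate 3 and in both Aged + Unsorted libraries came from Serpine2, a secreted protease inhibitor, and Fshr, the receptor of follicle-stimulating hormone, was listed at 0 in 4 of the 5 libraries. Endothelial, luteal, stromal, red blood cell and immune markers summed to at most 19.2 in any library. Without adjustment, 1 of 5 luteal markers tested was higher in Aged + Unsorted and none of the 9 granulosa, 5 stromal, 6 immune, 2 red blood cell or 4 endothelial markers tested was higher or lower. Over all genes tested, 5.85% were higher and 0.125% lower. The part of these cells in the results was not tested.

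**Figure D1:**
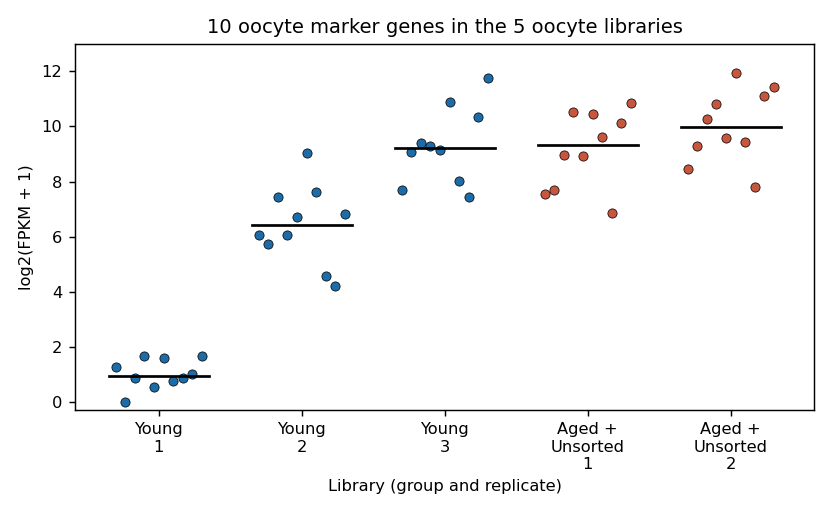
FPKM of the 10 oocyte markers in the 5 oocyte libraries, as log2(FPKM + 1) on the vertical axis, with a point for each gene and a black line at the median. The median FPKM was 0.892 in Young replicate 1 and 84.9 in Young replicate 2, against 595 in Young replicate 3 and 647 and 1001 in Aged + Unsorted.

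No gene was called different between Aged + Unsorted and Young oocytes. With limma on log2(FPKM + 1), 0 of 28004 genes (0%) passed a Benjamini-Hochberg adjusted p under 0.05 and a fold change over 1.5, and the smallest adjusted p was 0.716. Without adjustment, 1637 genes (5.85%) passed p under 0.05 and the fold as higher and 35 genes (0.125%) as lower in Aged + Unsorted. Both Aged + Unsorted libraries lay above all 3 Young libraries for 2877 genes (10.3%) and below all 3 for 180 genes (0.643%). An exact permutation test of a single gene cannot go below p = 0.1 with 2 libraries against 3. Left without Young replicate 1, the comparison again gave 0 called genes, with 696 genes (2.49%) higher and 161 genes (0.575%) lower without adjustment. Then 3826 genes (13.7%) lay above and 431 genes (1.54%) below both remaining Young libraries. The split between higher and lower was thus less uneven without that library, and so it was under quantile normalization, with 585 genes higher and 146 lower. Without Aged + Unsorted replicate 2, which leaves a lone library in that group, 85 genes were called higher, and without Young replicate 3 a single gene was, Pigf of glycolipid anchor synthesis. In bulk samples, fewer cells of a type and less RNA per cell cannot be told apart.

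The genes that passed without adjustment are described here by library. In simulated data, 1482 of 27804 unchanged genes passed p under 0.05, with no fold asked. The count alone is therefore not taken as evidence of a difference. That number is not split by direction, and the cause of the uneven split of 1637 higher and 35 lower was not tested. In the same data, 9 of 100 genes given a log2 change of 3 were called, and 61 of 100 given a change of 6. A changed gene can thus go uncalled with these libraries. Among the 1637 higher genes the median FPKM was 1.26, 0.0169 and 12.8 in Young and 44.1 and 27.3 in Aged + Unsorted. Young replicate 3 was the highest Young library for 1453 of them, and 817 were listed at 0 in Young replicate 2. They numbered 1356 protein-coding genes, and 567 of the 1637 still passed without Young replicate 1. Among the 35 lower genes the median FPKM was 3.91, 39.4 and 8.49 in Young and 0 and 0.798 in Aged + Unsorted, and 30 of them still passed without Young replicate 1. Their high values sat mainly in Young replicate 2. The abundance of a gene moved with these counts. Of 3687 protein-coding genes whose FPKM averaged 10 or more in the 5 libraries, 1022 (27.7%) were higher and 15 lower without adjustment, with a median log2 change of 2.43, against -0.09 over all genes tested. The corresponding medians without Young replicate 1 were 1.89 and 0.03, and under quantile normalization they were 1.05 and 0.01. Both Aged + Unsorted libraries lay above all Young for 38.4% of these genes, and above Young replicate 3 for 42.5%. That set is chosen by the level itself, so it serves only as the background for gene lists that oocytes express strongly. The lists were not cut at that level, so its shares are not matched to them, and over all genes tested 5.85% were higher.

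**Figure D2:**
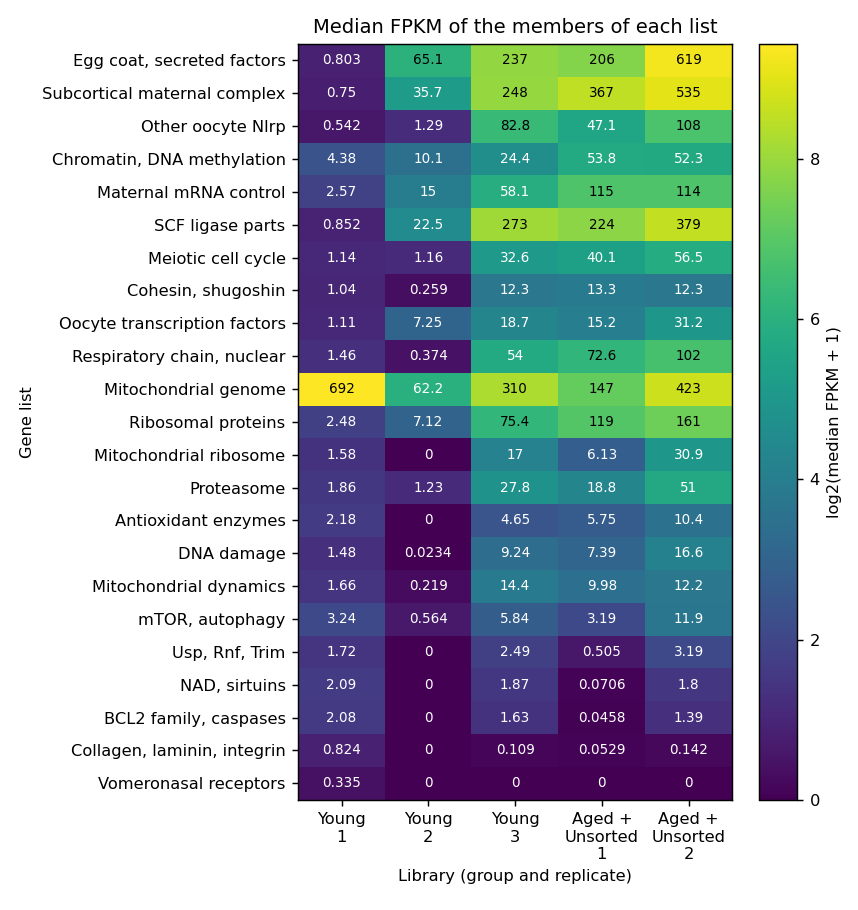
Median FPKM of the members of 23 gene lists (rows) in the 5 oocyte libraries (columns), printed in each cell and coloured as log2(median FPKM + 1). Lists of oocyte genes were at or under 5 in Young replicate 1 and far higher in Young replicate 3 and Aged + Unsorted, whereas the mitochondrial genome was highest in Young replicate 1 at 692.

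Genes of the egg coat and of secreted oocyte factors had a higher median in both Aged + Unsorted libraries than in Young replicates 1 and 2, and Young replicate 3 lay between them. The median FPKM of the list was 0.803, 65.1 and 237 in Young and 206 and 619 in Aged + Unsorted. Of 13 members 12 were tested, and 3 (25%, next to 27.7% of abundant protein-coding genes) were higher and 0 lower without adjustment. The median log2 change was 3.75, or 1.52 without Young replicate 1, when 0 were higher. Gdf9, a growth factor that oocytes secrete to granulosa cells, had an FPKM of 2.17, 65.1 and 626 in Young and 1467 and 1815 in Aged + Unsorted. Its Aged + Unsorted values did not overlap with Young, with a group mean of 1641 ± 246 (SD, n = 2) against 231 ± 343 (SD, n = 3), and the log2 change of 5.01 ± 2.13 (SE) became 3.00 without Young replicate 1 (adjusted p = 0.830, limma). Bmp15, its relative and partner, had an FPKM of 0.458, 105 and 563 in Young and 487 and 774 in Aged + Unsorted, and there Young replicate 3 fell between both Aged + Unsorted values. Zp3, the zona protein known as a sperm receptor, stood at 0.803, 174 and 679 in Young and 503 and 1228 in Aged + Unsorted, likewise with Young replicate 3 between them. Oosp1, a secreted oocyte protein, stood at 0.978, 17.3 and 1296 in Young and 1105 and 2180.3 in Aged + Unsorted and overlapped in the same way. Relative to Young replicate 3 alone, 3 of the 12 tested members had both Aged + Unsorted values higher, 8 had Young replicate 3 between them and 1 had both lower, and the median difference on the log2 scale was 0.29.

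The subcortical maternal complex is an assembly under the egg membrane that early cleavage depends on. Its 8 listed genes had a median FPKM of 0.750, 35.7 and 248 in Young and 367 and 535 in Aged + Unsorted. Of these, 2 (25%) were higher and 0 lower without adjustment and 4 (50%) lay above all Young libraries. The same shares over abundant protein-coding genes were 27.7% and 38.4%. The median log2 change was 3.77, or 1.52 without Young replicate 1, when 0 were higher. Ooep, a KH-domain protein of the complex, had an FPKM of 0.672, 196 and 257 in Young and 791 and 689.5 in Aged + Unsorted, so both Aged + Unsorted libraries were above every Young library, with a log2 change of 4.07 ± 2.01 (SE) (adjusted p = 0.845, limma). Padi6, a peptidylarginine deiminase family protein needed for cytoplasmic lattices, stood at 0.695, 14.8 and 310.4 in Young and 311 and 614 in Aged + Unsorted, where Young replicate 3 and the lower Aged + Unsorted library were nearly level. Tle6, a transducin-like member, stood at 1.22, 432 and 205 in Young and 97.2 and 456 in Aged + Unsorted and differed from the others in that Aged + Unsorted replicate 1 was below Young replicates 2 and 3. The other oocyte Nlrp genes had a median FPKM of 0.542, 1.29 and 82.8 in Young and 47.1 and 108 in Aged + Unsorted. Of these, 1 of 9 (11.1%) was higher without adjustment, with a median log2 change of 2.82 (1.22 without Young replicate 1, when 0 were higher). Nlrp14, the most abundant of them, had an FPKM of 8.51, 249 and 988 in Young and 848 and 1044 in Aged + Unsorted, and Young replicate 3 lay between both Aged + Unsorted libraries.

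Genes that guard or degrade the stored messages had members on either side. Of 26 members, 5 (19.2%) were higher and 1 lower without adjustment and 10 (38.5%) lay above all Young libraries. Over abundant protein-coding genes, 27.7% were higher and 38.4% lay above all Young libraries. The median log2 change of the list was 2.32, or 1.25 without Young replicate 1, when 3 were higher and 2 lower. Btg4, an adaptor that brings the deadenylase to maternal messages, had an FPKM of 3.94, 3097 and 913 in Young and 5075 and 1157 in Aged + Unsorted. Paip1, which binds the poly(A)-binding protein, had an FPKM of 38.3, 27238 and 6789 in Young and 21623 and 1454 in Aged + Unsorted. In both genes Young replicate 2 and Aged + Unsorted replicate 1 were the highest of the 5 libraries, so the range within each group was wider than the difference between the group means. Lsm14b, an RNA-granule protein, stood at 9.71, 1939 and 1226 in Young and 1245 and 382 in Aged + Unsorted, with a log2 change that turned from 1.23 to -1.16 without Young replicate 1. Zar1, which helps store maternal messages, stood at 5.11, 42.4 and 122 in Young and 243 and 660.4 in Aged + Unsorted, with both Aged + Unsorted libraries above all Young, at a log2 change of 3.65 ± 1.39 (SE) (2.46 without Young replicate 1, adjusted p = 0.830, limma). The lower member was Tut4, a terminal uridylyltransferase that tags messages for decay, at 0.910, 39.4 and 2.89 in Young and 0.110 and 0.313 in Aged + Unsorted. It was named for its count after its values were seen, and its high value was that of Young replicate 2.

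Maternal chromatin and DNA methylation genes had a median FPKM of 4.38, 10.1 and 24.4 in Young and 53.8 and 52.3 in Aged + Unsorted. Of 21 members, 4 (19.0%, next to 27.7% of abundant protein-coding genes) were higher and 0 lower without adjustment. The median log2 change was 2.09, or 1.07 without Young replicate 1 and 0.31 under quantile normalization. H1foo, the oocyte linker histone, had an FPKM of 2.18, 113 and 3437 in Young and 1870.0 and 2789 in Aged + Unsorted. Dppa3, which protects the maternal methylation pattern, had an FPKM of 1.98, 530.4 and 1913 in Young and 1390.2 and 3949 in Aged + Unsorted. Young replicate 3 was the highest library for H1foo and lay between both Aged + Unsorted libraries for Dppa3. Npm2, a nucleoplasmin that helps remodel chromatin after fertilization, stood at 0.992, 44.2 and 596 in Young and 1152 and 879 in Aged + Unsorted. Dnmt1, the maintenance DNA methyltransferase, stood at 1.69, 33.0 and 202 in Young and 513 and 287 in Aged + Unsorted. For these both Aged + Unsorted libraries were above all Young, with log2 changes of 4.74 ± 1.95 (SE) and 3.86 ± 1.58 (SE) and an adjusted p of 0.830 each (limma). Oocyte transcription factors had 2 of 13 tested members (15.4%) higher without adjustment and a median log2 change of 2.22 (1.11 without Young replicate 1). The most abundant of them, Foxo3, which restrains the activation of primordial follicles, stood at 4.96, 1211 and 776 in Young and 289 and 159 in Aged + Unsorted. Both Aged + Unsorted libraries were below Young replicates 2 and 3 and above Young replicate 1, and the log2 change turned from 0.28 to -2.17 without that library.

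Genes of the meiotic cell cycle and spindle checkpoint had a share of higher members close to that of abundant protein-coding genes. Of 32, 9 (28.1%) were higher and 0 lower without adjustment, next to 27.7% of abundant protein-coding genes, and 0 passed without Young replicate 1. The median FPKM was 1.14, 1.16 and 32.6 in Young and 40.1 and 56.5 in Aged + Unsorted, and the median log2 change 2.81, or 1.67 without Young replicate 1. Pttg1, securin, which holds separase inactive until anaphase, had an FPKM of 2.12, 141 and 5165 in Young and 2235 and 2939.7 in Aged + Unsorted. Young replicate 3 was there the highest of all 5 libraries. Bub1b, a kinase of the spindle checkpoint, stood at 1.04, 3.33 and 123 in Young and 131 and 216 in Aged + Unsorted, with both Aged + Unsorted libraries above all Young and a log2 change of 4.04 ± 1.63 (SE) (2.87 without Young replicate 1, adjusted p = 0.830, limma). Mos, the kinase that keeps eggs in metaphase arrest, stood at 1.04, 226 and 125 in Young and 29.9 and 250.3 in Aged + Unsorted. Ccnb1, a B-type cyclin, stood at 0.720, 199 and 152 in Young and 63.0 and 332 in Aged + Unsorted. In these, Aged + Unsorted replicate 1 was below Young replicates 2 and 3, and the log2 change without Young replicate 1 was -0.94 and -0.26.

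Cohesin holds sister chromatids together through the long arrest of the oocyte, and its loss is a known correlate of segregation errors with age. Of 17 cohesin and shugoshin genes tested, 4 (23.5%, next to 27.7% of abundant protein-coding genes) were higher and 0 lower without adjustment. The median log2 change was 1.49, or 1.34 without Young replicate 1, when 0 were higher. Smc3, a core subunit, had an FPKM of 0.793, 1.86 and 41.5 in Young and 102 and 72.9 in Aged + Unsorted, with both Aged + Unsorted libraries above all Young and a log2 change of 3.86 ± 1.46 (SE) (adjusted p = 0.830, limma). Esco2, which acetylates cohesin, stood at 0.342, 9.84 and 125 in Young and 43.9 and 165 in Aged + Unsorted. Wapl, which releases cohesin from chromosomes, stood at 2.94, 9.54 and 248 in Young and 18.4 and 65.4 in Aged + Unsorted. Aged + Unsorted replicate 1 was below Young replicate 3 in both genes. Parts of the SCF ubiquitin ligase, which oocytes express with many Fbxw members, had 3 of 18 (16.7%) higher and 0 lower. That share lay between the 5.85% of all genes tested and the 27.7% of abundant protein-coding genes. Their median FPKM was 0.852, 22.5 and 273 in Young and 224 and 379 in Aged + Unsorted. Their median log2 change was 3.07 (1.65 without Young replicate 1). Skp1a, the linker of that ligase, stood at 8.63, 27169 and 8353 in Young and 7533 and 2018 in Aged + Unsorted, and Young replicate 2 alone was the highest. Fbxw14, a substrate receptor, stood at 1.84, 118 and 1354 in Young and 1318 and 1424 in Aged + Unsorted, with Young replicate 3 between both Aged + Unsorted libraries and the other Young libraries far lower.

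The respiratory chain and ATP synthase genes of the nucleus, which make most subunits of oxidative phosphorylation, were, with the ribosomal protein genes, the lists with the largest share of higher members among the 34 lists. Of 84 members 81 were tested, 28 (34.6%) were higher and 0 lower without adjustment, and 37 (45.7%) lay above all Young libraries. The same shares over abundant protein-coding genes were 27.7% and 38.4%. The median FPKM was 1.46, 0.374 and 54.0 in Young and 72.6 and 102 in Aged + Unsorted, and 41 members were listed at 0 in Young replicate 2. The median log2 change of 3.31 became 2.46 without Young replicate 1, when 4 passed as higher and 0 as lower, and 1.88 under quantile normalization. Against Young replicate 3 alone, 39 of the 81 (48.1%, next to 42.5% of abundant protein-coding genes) had both Aged + Unsorted values higher and 6 both lower, with a median difference of 0.50 on the log2 scale.

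Among the members, Atp5e, the epsilon subunit of ATP synthase, had an FPKM of 4.28, 0 and 104 in Young and 429 and 399 in Aged + Unsorted. The group means were 36.1 ± 58.9 (SD, n = 3) and 414 ± 21.0 (SD, n = 2), both Aged + Unsorted libraries were above all Young, and the log2 change was 5.66 ± 1.69 (SE), or 5.34 without Young replicate 1 (adjusted p = 0.830, limma). Atp5h, the d subunit, stood at 6.87, 0 and 172 in Young and 546 and 364 in Aged + Unsorted. Cox7c, a small subunit of cytochrome c oxidase, stood at 0.739, 6.58 and 428 in Young and 746 and 461 in Aged + Unsorted. In each, both Aged + Unsorted libraries were above all Young, with log2 changes of 5.33 and 5.04. Ndufc2, an accessory subunit of complex I, stood at 1.29, 213 and 88.1 in Young and 363 and 219.7 in Aged + Unsorted, where Young replicate 2 lay just under the lower Aged + Unsorted library.

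The 13 protein genes of the mitochondrial genome, whose products join the nuclear subunits in the same complexes, did not show that pattern. Their median FPKM was 692, 62.2 and 310.1 in Young and 147 and 423 in Aged + Unsorted, with 0 higher and 0 lower without adjustment. The median log2 change of 0.12 was 0.46 without Young replicate 1, but -0.62 without Young replicate 2 and -1.05 under quantile normalization. Young replicate 1, poor in oocyte RNA, had the highest median of all. The most abundant, mt-Atp6 of ATP synthase, had an FPKM of 457, 438 and 1748 in Young and 147 and 989 in Aged + Unsorted. Next to it, mt-Co1 of cytochrome c oxidase had an FPKM of 855, 70.8 and 636 in Young and 246 and 664 in Aged + Unsorted. The groups overlapped in both, and Aged + Unsorted replicate 1 was the lowest library for mt-Atp6.

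Ribosomal protein genes, which encode the cytoplasmic ribosome, had a like share. Of 82, 29 (35.4%) were higher and 0 lower without adjustment, and 44 (53.7%) lay above all Young libraries, next to 27.7% and 38.4% of abundant protein-coding genes. The median FPKM was 2.48, 7.12 and 75.4 in Young and 119 and 161 in Aged + Unsorted, and the median log2 change 3.02, or 1.97 without Young replicate 1 with 6 higher, and 1.55 under quantile normalization. Against Young replicate 3, 51 of 82 (62.2%, next to 42.5%) had both Aged + Unsorted values higher. Rpl41, a short protein of the large subunit, had an FPKM of 1.73, 23.4 and 222 in Young and 783 and 714 in Aged + Unsorted. Rps13 of the small subunit had an FPKM of 1.60, 39.5 and 149.7 in Young and 528 and 433 in Aged + Unsorted. In both, the Aged + Unsorted libraries were above all Young, with log2 changes of 4.93 ± 1.71 (SE) and 4.25 ± 1.66 (SE) (adjusted p = 0.830 each, limma). Rps9 of the small subunit, in contrast, stood at 2.07, 553 and 110.1 in Young and 252 and 216 in Aged + Unsorted, and Young replicate 2 was the highest library. Many ribosomal protein genes have processed pseudogenes of near-identical sequence, so reads can be split between copies.

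Genes of the mitochondrial ribosome had 11 of 77 (14.3%) higher and 0 lower without adjustment. That share lay between the 5.85% of all genes tested and the 27.7% of abundant protein-coding genes. Their median FPKM was 1.58, 0 and 17.0 in Young and 6.13 and 30.9 in Aged + Unsorted. Their median log2 change was 1.89 (1.47 without Young replicate 1, when 3 were higher). Mrps33, a small-subunit protein, stood at 0.653, 3.05 and 282 in Young and 246 and 528 in Aged + Unsorted, where Young replicate 3 lay between both Aged + Unsorted libraries. Genes of the proteasome, which degrades ubiquitin-tagged proteins, had 11 of 48 (22.9%) higher and 0 lower, also between 5.85% and 27.7%. Their median FPKM was 1.86, 1.23 and 27.8 in Young and 18.8 and 51.0 in Aged + Unsorted. Their median log2 change was 2.14 (1.61 without Young replicate 1, when 2 were higher). Psma7, a subunit of the core particle, stood at 9.43, 28.0 and 646 in Young and 2785 and 680.1 in Aged + Unsorted, and Aged + Unsorted replicate 1 was the highest library by far.

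**Figure D3:**
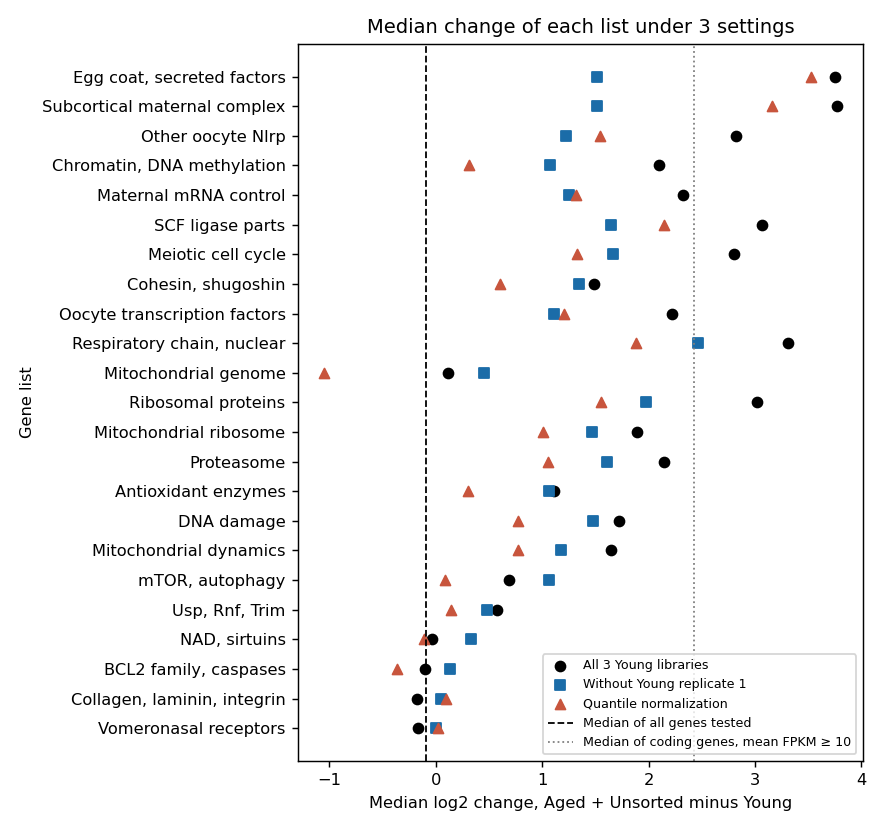
Median log2 change in FPKM (Aged + Unsorted minus Young, horizontal axis) of 23 gene lists with all 3 Young libraries (circles), without Young replicate 1 (squares) and under quantile normalization (triangles), with lines at the median of all genes tested and of abundant protein-coding genes. The egg coat list lay at 3.75 with all libraries and 1.52 without Young replicate 1, and the mitochondrial genome at 0.12 and 0.46.

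The pathways that the study links to oocyte ageing were then compared as lists. Usp, Rnf and Trim genes, deubiquitinases and ubiquitin ligases, had 19 of 177 tested members (10.7%) higher and 1 lower without adjustment. The share higher was 5.85% over all genes tested and 27.7% over abundant protein-coding genes. Their median log2 change of 0.58 was 0.48 without Young replicate 1, with 8 higher, but -0.15 without Aged + Unsorted replicate 2. Trim61, the most abundant, had an FPKM of 2.08, 29.0 and 465 in Young and 987 and 1336 in Aged + Unsorted. Both Aged + Unsorted libraries were above all Young, with a log2 change of 5.04 ± 2.03 (SE) (3.28 without Young replicate 1, adjusted p = 0.830, limma). The lower member was Trim65, an E3 ligase, at 4.57, 15.3 and 3.77 in Young and 1.14 and 0.228 in Aged + Unsorted, named for its count after its values were seen. All 3 Young libraries were above both Aged + Unsorted libraries.

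DNA damage genes had 7 of 38 (18.4%) higher and 0 lower without adjustment, and 15 (39.5%) lay above all Young libraries. The corresponding shares were 27.7% and 38.4% over abundant protein-coding genes and 5.85% and 10.3% over all genes tested. The median FPKM was 1.48, 0.0234 and 9.24 in Young and 7.39 and 16.6 in Aged + Unsorted, and the median log2 change 1.72, or 1.47 without Young replicate 1 with 4 higher and 1 lower. Chek1, the checkpoint kinase of stalled replication, had an FPKM of 0.467, 14.2 and 88.1 in Young and 94.1 and 173 in Aged + Unsorted, and Young replicate 3 was just under the lower Aged + Unsorted library. Ddb1, a subunit of a ubiquitin ligase that recognises damaged DNA, stood at 0.680, 1.03 and 26.9 in Young and 98.5 and 57.2 in Aged + Unsorted. Msh6, of mismatch repair, stood at 3.11, 0.763 and 21.3 in Young and 104 and 30.8 in Aged + Unsorted. Both Aged + Unsorted libraries were above all Young for these, with log2 changes of 4.06 ± 1.11 (SE) and 3.41 ± 1.05 (SE) (adjusted p = 0.830 each, limma), and of 3.34 and 3.20 without Young replicate 1.

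Collagens, laminins and integrins were close to 0 in most libraries, with a median FPKM of 0.824, 0 and 0.109 in Young and 0.0529 and 0.142 in Aged + Unsorted. Of 83 members 73 were tested, 3 were higher and 0 lower without adjustment, which at 4.11% was no more than the 5.85% of all genes tested. The median log2 change of -0.18 was 0.05 without Young replicate 1 and 0.09 under quantile normalization, so its sign depended on the setting. Lamb1, a laminin chain, was the most abundant at 1.27, 56.5 and 73.3 in Young and 39.5 and 102 in Aged + Unsorted, and the groups overlapped. Itga6, an integrin of the laminin receptor, stood at 9.44, 1.14 and 9.94 in Young and 45.0 and 73.4 in Aged + Unsorted, with both Aged + Unsorted libraries above all Young and a log2 change of 3.22 ± 1.35 (SE). NAD metabolism and sirtuin genes had 2 of 26 (7.69%) higher and 0 lower, a median FPKM of 2.09, 0 and 1.87 in Young and 0.0706 and 1.80 in Aged + Unsorted and a median log2 change of -0.03 (0.33 without Young replicate 1). Sirt6, a chromatin deacylase, was the most abundant at 4.91, 356 and 318 in Young and 153 and 53.3 in Aged + Unsorted and was lower in Aged + Unsorted than in Young replicates 2 and 3. Sirt5, a mitochondrial desuccinylase, stood at 2.07, 0 and 5.76 in Young and 72.7 and 11.5 in Aged + Unsorted, above all Young.

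Antioxidant enzymes had 2 of 26 (7.69%) higher and 0 lower without adjustment, next to 5.85% higher over all genes tested and 27.7% over abundant protein-coding genes. Their median log2 change was 1.11 (1.06 without Young replicate 1, when 0 were higher, and 0.30 under quantile normalization). Sod1, the copper-zinc superoxide dismutase, had an FPKM of 20.8, 895 and 17124 in Young and 3428 and 5197 in Aged + Unsorted, and Young replicate 3 was the highest of all 5 libraries. Txn2, the thioredoxin of mitochondria, stood at 1.27, 0.423 and 46.1 in Young and 98.6 and 69.5 in Aged + Unsorted, with both Aged + Unsorted libraries above all Young and a log2 change of 3.97 ± 1.66 (SE). Gpx4, which reduces lipid peroxides, stood at 5.06, 1.10 and 26.9 in Young and 0 and 81.9 in Aged + Unsorted, so the lowest and the highest value were both from Aged + Unsorted. Genes of mitochondrial dynamics had 4 of 19 (21.1%) higher, with a median log2 change of 1.65 (1.18 without Young replicate 1). Among them Dnm1l, the fission GTPase, stood at 1.90, 0.704 and 24.6 in Young and 65.7 and 44.0 in Aged + Unsorted and did not overlap. The mTOR and autophagy list had 0 higher and 0 lower of 22, at a median log2 change of 0.68 (1.07 without Young replicate 1).

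The BCL2 family and caspases had a median FPKM of 2.08, 0 and 1.63 in Young and 0.0458 and 1.39 in Aged + Unsorted, with 3 of 24 higher, 0 lower and a median log2 change of -0.10 (0.13 without Young replicate 1). Their most abundant member, Bcl2l10, a BCL2 family protein that oocytes express strongly, had an FPKM of 0.458, 39.5 and 740.3 in Young and 1704 and 1846 in Aged + Unsorted. Both Aged + Unsorted libraries were above all Young, and Young replicate 3 was the nearest. Genes that keep the oocyte in prophase arrest and couple it to granulosa cells had 2 of 14 (14.3%) higher and 0 lower, at a median log2 change of -0.06 (0.33 without Young replicate 1). Gja4, the connexin of the oocyte side of the gap junction, stood at 1.79, 0.709 and 102 in Young and 132 and 289 in Aged + Unsorted, above all Young. Gja1, the connexin of the granulosa cell side, was lower in Aged + Unsorted than in Young replicates 2 and 3, at 0.892, 135 and 228 in Young and 31.4 and 2.80 in Aged + Unsorted. Of 329 vomeronasal receptor genes, which encode pheromone receptors, 78 passed the filter and 1 (1.28%) was higher without adjustment, at a median log2 change of -0.17. It was Vmn1r202, at 0.303, 0 and 0.410 in Young and 84.7 and 0.237 in Aged + Unsorted, with its value from a single library.

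The 12 genes that the study names for oocytes of aged and transplanted mice were low in all 5 libraries, with a median FPKM of 2.72, 0 and 4.07 in Young and 3.07 and 11.5 in Aged + Unsorted. None was called, 1 (8.33%) was higher and 0 lower without adjustment, and 5 (41.7%) lay above all Young libraries, next to 5.85% and 10.3% of all genes tested and 27.7% and 38.4% of abundant protein-coding genes. Their median log2 change was 1.32 (1.38 without Young replicate 1, 0.30 under quantile normalization). These genes were chosen by the study on these libraries and are no independent evidence of a direction. Bfar, an E3 ligase of the endoplasmic reticulum, had an FPKM of 2.69, 0 and 6.67 in Young and 44.6 and 15.4 in Aged + Unsorted and a log2 change of 3.17 ± 0.89 (SE), with both Aged + Unsorted libraries above all Young (adjusted p = 0.830, limma). Of the ubiquitin genes, Rnf41 stood at 2.25, 0 and 0.636 in Young and 3.11 and 5.82 in Aged + Unsorted. Usp21 stood at 2.29, 0 and 5.64 in Young and 0.973 and 20.6 in Aged + Unsorted. Rnf41 did not overlap between groups, whereas the lower Usp21 value was below Young replicates 1 and 3. Trim2, an E3 ligase, stood at 5.71, 0 and 0.0701 in Young and 0.736 and 0 in Aged + Unsorted, and Young replicate 1 was the highest.

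Smchd1, a chromatin protein of X inactivation, stood at 8.34, 0.125 and 4.82 in Young and 10.1 and 14.5 in Aged + Unsorted. Smarcad1, a nucleosome remodeller of DNA end resection, stood at 2.71, 0.226 and 4.48 in Young and 4.14 and 17.0 in Aged + Unsorted. Aged + Unsorted was above all Young in Smchd1, with a log2 change of 1.74 ± 0.90 (SE), and the groups overlapped in Smarcad1. Usp10, a deubiquitinase of p53, stood at 3.71, 1.99 and 15.6 in Young and 8.07 and 28.8 in Aged + Unsorted. Rptor, a scaffold of the mTOR complex that drives growth, stood at 4.66, 0 and 0.0499 in Young and 3.03 and 0.867 in Aged + Unsorted. Tiprl, a regulator of protein phosphatases, stood at 2.72, 0.435 and 4.71 in Young and 0 and 13.1 in Aged + Unsorted. The groups overlapped in these. Lama5, a laminin chain, stood at 2.94, 0 and 3.67 in Young and 4.17 and 9.87 in Aged + Unsorted. Utrn, which links the cytoskeleton to the matrix, stood at 1.26, 0.342 and 1.10 in Young and 1.70 and 1.32 in Aged + Unsorted. Neither overlapped between groups, but both were low, and Utrn at 1.32 in Aged + Unsorted replicate 2 was nearly level with 1.26 in Young replicate 1. Nmnat3, an enzyme of NAD synthesis, stood at 1.62, 0 and 0.102 in Young and 0.255 and 1.60 in Aged + Unsorted, under an FPKM of 2 in every library.

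The study built an ageing score from genes that differed between its Young and Aged oocytes. The gene list published with the score holds 580 identifiers, all tested here, which is slightly more than the number of genes the study states for it, so the list and the genes behind the score may differ. Since the same Young libraries chose them, their values describe the list and test nothing. Their median FPKM was 1.63, 0 and 1.97 in Young and 0.447 and 3.88 in Aged + Unsorted, and 419 of 580 were listed at 0 in Young replicate 2, next to 127 in Young replicate 3 and 127 in Aged + Unsorted replicate 2. In Aged + Unsorted, 94 (16.2%) were higher and 0 lower than in Young without adjustment, and 153 (26.4%) lay above and 1 below all Young libraries. The corresponding shares were 5.85% and 10.3% over all genes tested and 27.7% and 38.4% over abundant protein-coding genes. For 343 of the 580, Young replicate 3 lay between both Aged + Unsorted libraries. The median log2 change of 0.54 was 0.75 without Young replicate 1 and -0.12 without Aged + Unsorted replicate 2. Zrsr2, a spliceosome protein of the minor introns, was the most abundant, with an FPKM of 4.17, 0 and 6.68 in Young and 308 and 90.0 in Aged + Unsorted. Ahdc1, a DNA-binding protein, stood at 10.2, 0 and 14.9 in Young and 136 and 78.4 in Aged + Unsorted. In both, the lower Aged + Unsorted value was above all Young.

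Genes were also taken by size of change, among protein-coding genes with an average FPKM of 10 or more, no overlap of groups and an unadjusted p under 0.05. That choice fixes their separation, so their values are given as a description. The 12 genes with the largest positive changes ran from a log2 change of 5.29 to 5.68, each with an adjusted p of 0.830 (limma). Selenow (ENSMUSG00000041571.9, GRCm38 chr7:15917208-15922402, minus strand), a small selenoprotein, led with an FPKM of 1.09, 0.593 and 159 in Young and 419.8 and 409.9 in Aged + Unsorted and a log2 change of 5.68 ± 1.94 (SE), or 4.70 without Young replicate 1. Uchl1, a ubiquitin hydrolase abundant in eggs, stood at 1.16, 39.0 and 808 in Young and 1588 and 1775 in Aged + Unsorted. Sec61b, of the translocon of the endoplasmic reticulum, stood at 1.75, 0 and 89.4 in Young and 349.6 and 253 in Aged + Unsorted. In these genes Young replicates 1 and 2 were near 0 or far under Young replicate 3, which was the nearest to Aged + Unsorted. The others were Atp5e, Bcl2l10, Zrsr2, Pfdn1, Immp1l, Rps27, Atp5h, Tmem258 and Pigf, which make parts of ATP synthase, the BCL2 family, the spliceosome, the prefoldin chaperone, the mitochondrial inner membrane peptidase, the ribosome, the oligosaccharyltransferase and the synthesis of glycolipid anchors. Zrsr2 alone of the 12 had a change without Young replicate 1 (5.92) that was larger than with it (5.62).

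In the other direction 11 protein-coding genes met the same terms, and their log2 changes ran from -3.21 to -5.42, also with an adjusted p of 0.830 each (limma). Smim10l1 (ENSMUSG00000072704.6, GRCm38 chr6:133104909-133110899, plus strand), a small integral membrane protein, had an FPKM of 20.4, 227 and 17.3 in Young and 0 and 0.0892 in Aged + Unsorted and a log2 change of -5.42 ± 1.05 (SE), or -5.95 without Young replicate 1, a size that depends on the pseudocount since Aged + Unsorted was at or near 0. All 3 Young libraries were far above Aged + Unsorted, and Young replicate 2 was the highest. Nr2f2, an orphan nuclear receptor, stood at 19.2, 167 and 13.9 in Young and 0.679 and 3.32 in Aged + Unsorted. Slc39a1, a zinc importer of the plasma membrane, stood at 2.10, 92.6 and 136 in Young and 0 and 1.98 in Aged + Unsorted. For Slc39a1 Young replicate 1 and the higher Aged + Unsorted value were nearly level. Skil, a repressor of TGF-beta signalling, stood at 1.67, 64.3 and 9.06 in Young and 0 and 0 in Aged + Unsorted, and no fold is given against a group listed at 0. The others were Zfp367, Fam81a, Sept10, Klhl42, Crebl2, Sdc4 and Stk38l, which include a zinc finger protein, a septin, a Kelch protein of a ubiquitin ligase, a syndecan and a kinase of the NDR family. Young replicate 2 was the highest library for all of them but Slc39a1.

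**Figure D4:**
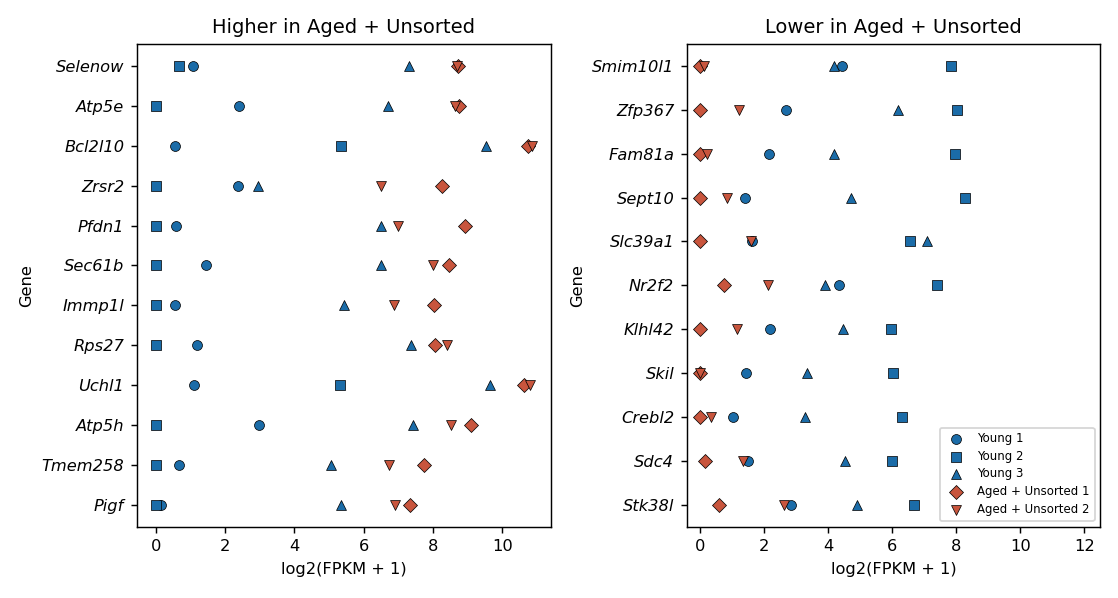
FPKM of the genes with the largest changes, as log2(FPKM + 1) on the horizontal axis, higher (left) and lower (right) in Aged + Unsorted, with a point for each of the 5 libraries. In the left plot Young replicate 3 (blue triangles) lies closest to Aged + Unsorted (red), and in the right plot the highest point is mostly Young replicate 2 (blue squares).

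The most abundant messages varied widely between libraries of a group. By mean TPM, the Young group was led by Gm10800, at 781396, 9983 and 6.89 in Young and 27015 and 94.4 in Aged + Unsorted, which a single library set. Its family had 0 of 11 genes higher and 0 lower without adjustment, with a median log2 change of -1.82 that was 1.37 without Young replicate 1. Insig1, a sterol sensor of the endoplasmic reticulum, followed with a TPM of 45.3, 146439 and 14374 in Young and 6264 and 2330.5 in Aged + Unsorted, and Young replicate 2 was the highest by far. The top 10 genes of a library took 88.5%, 41.0% and 15.5% of its TPM in Young and 20.6% and 8.36% in Aged + Unsorted. Actb, cytoplasmic actin, had a TPM of 88.1, 15381 and 9734 in Young and 5953 and 1151 in Aged + Unsorted. Spin1, a reader of histone methylation that oocytes express strongly, had a TPM of 16.5, 5171 and 16495 in Young and 1831 and 2627 in Aged + Unsorted. Actb was highest in Young replicate 2 and Spin1 in Young replicate 3. Stk35, a kinase, had a TPM of 2.56, 17629.7 and 835 in Young and 1787 and 206 in Aged + Unsorted, with a single high library. Among the 10 leading genes of Aged + Unsorted, Elobl, an elongin B-like gene, had a TPM of 3.10, 1047 and 4762 in Young and 3568 and 8875 in Aged + Unsorted. Hsp90aa1, an inducible chaperone, had a TPM of 10.1, 718 and 1692 in Young and 8199 and 2610.5 in Aged + Unsorted. Elobl was highest in Aged + Unsorted replicate 2 and Hsp90aa1 in Aged + Unsorted replicate 1.

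Transcript length moved with the dropout of genes from Young replicate 2. Of abundant protein-coding genes with transcripts of up to 1000 bases, 33.1% of 1725 were listed at 0 in Young replicate 2, against 13.4% of 119 genes with transcripts over 4000 bases. In Aged + Unsorted replicate 1 these shares were 6.43% and 1.68%. The share higher in Aged + Unsorted without adjustment was 30.4% in the shortest class and 21.8% in the longest, and the median log2 change was 2.60 and 1.94. That share did not fall steadily, at 25.9% for 1000 to 2000 bases, 23.7% for 2000 to 3000 and 28.6% for 3000 to 4000. The named higher genes had a median transcript length of 736 bases and the named lower genes of 1697 bases. For the respiratory chain and ribosomal protein lists it was 581 and 637 bases, against 1082 for abundant protein-coding genes. The shares set beside those lists were therefore not matched for length. The part of length in the results was not tested.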

How the data were processed

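Oocytes of Young (n = 3) and Aged + Unsorted (n = 2) mice were sequenced as bulk RNA, and groups came from the labels. The authors aligned reads with HISAT2 2.2.1 and assembled gene abundance with StringTie 1.3.3b, per the labels' processing notes. The deposited tables hold FPKM, TPM and read coverage for 55335 gene identifiers in each library. The processing notes name mm9, but 54580 identifiers carry the coordinates of GENCODE M21 for GRCm38, the build used for positions here. The labels name a KAPA stranded kit and the methods a Smart-seq2 protocol, so strandedness was not settled, and reads of overlapping antisense genes may be mixed. FPKM of repeated identifiers was summed. The deposited coverage of 21693 single-exon genes, with their FPKM, gave the depth of each library in aligned bases, and the worth of 1 read assumed a read length of 150 bases.

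Tests used limma 3.58.1 (R 4.3.3) on log2(FPKM + 1) for genes averaging an FPKM of 1 or more in the 12 oocyte libraries. All 5 oocyte groups shared the estimate of the spread, which included 4 libraries poor in oocyte RNA (Young replicate 1, an Aged library and both libraries given LRP1low cells). Fold changes are on that scale and understate low genes. A gene was called at a Benjamini-Hochberg adjusted p under 0.05 over all genes and a fold over 1.5. Counts without adjustment used p under 0.05 with the same fold. Tables were made with Python 3.11.15, numpy 2.4.6, pandas 2.3.3 and matplotlib 3.10.9, and the fit was tested on simulated data. The text names up to 12 protein-coding genes in each direction averaging an FPKM of 10 or more, with no overlap between groups and an unadjusted p under 0.05, ranked by change, together with the genes the study names. Some, not all, of the 10 genes highest in mean TPM in each group and of the most abundant 6 members of the 34 lists are also named. Which of these were named followed no stated rule. The comparison, lists and rule were chosen with earlier results of these data known, and 1 list symbol was not found. Alternatives covered the libraries in the fit, the replicate block, scaling, unit, pseudocount, filter, variance prior, gene class and each library left out.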

Additional observations from a re-analysis of the deposited data

How the results depend on the processing

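No gene was called different in most of the 17 alternatives. The 12 higher and 11 lower genes taken by size of change kept their sign in each alternative that tested them. They were chosen for no overlap between groups, which fixes the sign when single libraries are left out. Their kept sign is therefore no evidence of stability. Other genes of the text were compared only with and without Young replicate 1, which turned the sign of some, such as Lsm14b (1.23 to -1.16), Foxo3 (0.28 to -2.17), Mos (1.18 to -0.94) and Ccnb1 (1.96 to -0.26). Genes called higher numbered 0 to 85 when single libraries were left out, with 85 without Aged + Unsorted replicate 2 (smallest adjusted p 0.0160, limma) and 1 without Young replicate 3, and genes called lower numbered 0 to 0. Without the 4 libraries poor in oocyte RNA, an alternative chosen after seeing the data, 3 genes were called higher and 1 lower. Genes higher without adjustment, 1637 in the reported fit, numbered 508 to 3452 when single libraries were left out, with 508 without Young replicate 2, 3452 without Young replicate 3, 524 without Aged + Unsorted replicate 1 and 696 without Young replicate 1. They numbered 597 with the 5 libraries alone, 585 under quantile normalization, 857 with a pseudocount of 0.1, 691 at a mean FPKM of at least 10, 466 without the 4 poor libraries and 518 on TPM without the Gm10800 family, also chosen after seeing the data. Genes lower without adjustment, 35 in the reported fit, numbered 7 to 161 when single libraries were left out, with 7 without Aged + Unsorted replicate 1, 161 without Young replicate 1, 109 without Young replicate 2 and 55 without Young replicate 3. Under those other settings they numbered 21 with the 5 libraries alone, 146 under quantile normalization, 54 with no filter, 9 at a mean FPKM of at least 10, 19 when the mean FPKM of 1 was taken in the 5 libraries alone, 119 without the 4 poor libraries and 105 on TPM without the Gm10800 family. The cause was not tested. With the replicate block, 1773 genes were higher and 34 lower without adjustment and none was called, and samples of the same number correlated at 0.175 and -0.252 in their deviations from the group means, so the numbers were not taken as pairs. The median log2 change of all genes was -0.09, and -0.64 on TPM without the Gm10800 family. On that scale the ubiquitin families stood at -0.25 and the mitochondrial genome at -0.77, whereas the egg coat, maternal complex, respiratory chain, ribosomal protein, mitochondrial ribosome, proteasome, meiotic cell cycle and cohesin lists kept a median above 0 in every alternative run. Depth of 0.984 to 3.40 gigabases and 2 or 3 libraries a group limit what can be seen, and genes listed at 0 may be undetected rather than absent.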

Other observations

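Ribosomal RNA took a larger share of both Aged + Unsorted libraries. For small nucleolar RNA the larger share came mainly from Aged + Unsorted replicate 1, and Aged + Unsorted replicate 2 was little above Young replicate 2. The share of TPM in rRNA genes was 0.116%, 0.0953% and 0.143% in Young and 6.51% and 2.19% in Aged + Unsorted, so the groups did not overlap. It came mainly from CT010467.1 (ENSMUSG00000106106.2, GRCm38 chr17:39846353-39848827, minus strand), an rRNA gene with the highest mean TPM of Aged + Unsorted, at an FPKM of 713, 288 and 551 in Young and 29122 and 9994 in Aged + Unsorted. Its log2 change was 5.14 ± 1.00 (SE), or 5.42 without Young replicate 1 (adjusted p = 0.830, limma). The share in snoRNA genes was 0.0996%, 0.136% and 0.0331% in Young and 1.48% and 0.170% in Aged + Unsorted. Snora47, a nucleolar guide RNA for pseudouridine in rRNA that was named after its values were seen, stood at 1.75, 3.48 and 15.5 in Young and 3943 and 264 in Aged + Unsorted, with a log2 change of 7.44 ± 1.97 (SE).

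Without Young replicate 1, some abundant genes were lower in Aged + Unsorted than in Young replicates 2 and 3, and these were chosen after their values were seen. Cbx3, a heterochromatin protein, had an FPKM of 18.0, 1309 and 316 in Young and 29.4 and 1.97 in Aged + Unsorted, with a log2 change of -6.09 without Young replicate 1. Fry, a scaffold of kinases of the NDR family, stood at 5.23, 928 and 425 in Young and 4.56 and 53.4 in Aged + Unsorted, with a log2 change of -5.18. Tmem181a, a membrane protein, stood at 1.91, 2359.7 and 273 in Young and 3.08 and 37.8 in Aged + Unsorted, with a log2 change of -6.00. In each, Young replicate 2 was the highest library, and Young replicate 1 was far under Young replicates 2 and 3. Cnot3, a subunit of the deadenylase that shortens poly(A) tails, was higher instead, at 8.73, 0.520 and 38.5 in Young and 458 and 181 in Aged + Unsorted, with a log2 change of 5.22. None of the 4 was called by limma, with an adjusted p of 1 without Young replicate 1.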
